A study of Mus musculus with 2 samples.

Results

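Astrocytes help neurons to build, mature and remove synapses, and the 10 genes described here encode the best known proteins of that work: Thbs1, Thbs2, Thbs4, Sparc, Sparcl1, Gpc4, Gpc6, Chrdl1, Megf10 and Mertk. They were chosen by symbol from 55536 annotated genes, of which 22015 were protein-coding and lay outside mitochondrial DNA, and each symbol matched 1 gene. Total RNA was sequenced from the cerebral cortex of the left hemisphere of 14-day-old male mice of the strain B6CASTF1/J, a first-generation hybrid of C57BL/6 and CAST with no treatment or engineered allele named. The single group held 2 libraries of 300 ng RNA each, biological replicates 1 and 2, with 28263266 and 30862848 expected counts on annotated genes. Each library has its own biosample in the labels, yet the donor entry is shared and the number of males is given as 3, so whether separate animals or pooled tissue gave the libraries is not stated. How much of the spread between them lies between animals, between dissections or in the library preparation is therefore not known, and with 1 group there is no comparison of conditions and no p-value. Bulk RNA leaves the cell of origin of a transcript unknown.

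As background, thrombospondins are matrix glycoproteins that astrocytes secrete and that promote excitatory synapse formation through the calcium channel subunit Cacna2d1. Hevin, the product of Sparcl1, links the presynaptic and postsynaptic sides of forming synapses, and its relative SPARC opposes it. Glypicans 4 and 6 carry heparan sulfate chains and draw AMPA receptors to young synapses, whereas Chrdl1, an antagonist of bone morphogenetic proteins, favours receptors that contain GluA2. Megf10 and Mertk are receptors through which glia engulf synapses. The first weeks after birth are a period of synapse formation and refinement in mouse cortex.

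Sparc, Gpc6 and Chrdl1 had annotated transcripts that differ in coding sequence and shared the gene's reads, and those stretches are shown first because the results on transcripts turn on them. All were read from the GENCODE M21 transcript sequences on GRCm38 (mm10), which are C57BL/6 reference sequence. In Gpc6, transcript ENSMUST00000125435.1 has an exon of 30 bases, chr14:117892342-117892371 on the plus strand and a multiple of 3, that ENSMUST00000088483.9 skips. In Sparc, Sparc-201 (ENSMUST00000018737.12) begins an exon 3 bases earlier than Sparc-202 (ENSMUST00000108858.7), at chr11:55407277-55407279 on the minus strand, where the letters cag follow each other. In Chrdl1, ENSMUST00000074660.11 reads on past the end of an exon for 47 bases, chrX:143299822-143299868 on the minus strand, and ends with a stop codon, whereas ENSMUST00000063029.12 splices to the next exon. Capitals mark the Gpc6 exon, the added Sparc bases and the Chrdl1 bases after the point where the transcripts part, each after 30 shared bases.
Gpc6 with the exon: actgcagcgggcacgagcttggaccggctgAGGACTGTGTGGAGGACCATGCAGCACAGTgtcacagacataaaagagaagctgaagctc
Gpc6 without the exon: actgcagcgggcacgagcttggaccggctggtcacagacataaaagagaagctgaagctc
Sparc-201: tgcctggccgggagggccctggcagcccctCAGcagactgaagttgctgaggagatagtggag
Sparc-202: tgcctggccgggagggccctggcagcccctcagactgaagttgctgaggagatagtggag
Chrdl1 short form: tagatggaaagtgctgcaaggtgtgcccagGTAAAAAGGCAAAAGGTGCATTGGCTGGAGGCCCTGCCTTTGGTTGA
Chrdl1 long form: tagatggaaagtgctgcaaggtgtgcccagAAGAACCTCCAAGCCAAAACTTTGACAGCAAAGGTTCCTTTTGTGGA

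The tissue held its astrocyte RNA in both libraries. All 10 astrocyte markers examined reached 1 TPM, with a summed level of 1708 TPM in replicate 1 and 1747 TPM in replicate 2, and Slc1a2, the main glutamate transporter of astrocytes, stood at 948 and 1001 TPM. TPM, a length-scaled transcript abundance, divides reads by transcript length, so genes can be compared within a library. The libraries differed in markers of other cell types and of tissue outside the cortex. Summed striatal markers were at 412 and 89.1 TPM, deep-layer markers at 168 and 96.7, upper-layer markers at 246 and 338, myelinating oligodendrocyte markers at 998 and 650, and choroid plexus markers at 33.5 and 124 in replicates 1 and 2. Of the 5 deep-layer markers, Fezf2 went the other way, at 11.65 and 13.09 TPM. Most of the choroid plexus sum was Ttr, at 30.37 and 118.5 TPM. Only 2 of the 5 choroid plexus markers reached 1 TPM in both libraries, and Clic6 was lower in replicate 2.

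Levels of the 10 genes spanned from near 1 to over 500 TPM, and the matrix proteins of the SPARC family were far above the rest. All 10 reached 1 TPM in both libraries, as did 58.7% of the protein-coding genes and 27.1% of all annotated genes. Sparcl1 and Sparc together made up most of the summed level of the 10: Sparcl1 took 69.7% of it in replicate 1 and 70.0% in replicate 2, and Sparc took 23.2% and 22.2%. The thrombospondins were lowest. The median over the 10 genes was 8.45 TPM in replicate 1 and 10.87 in replicate 2, against 15.96 and 15.89 over the 12931 protein-coding genes at 1 TPM in both libraries.

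**Figure D1:**
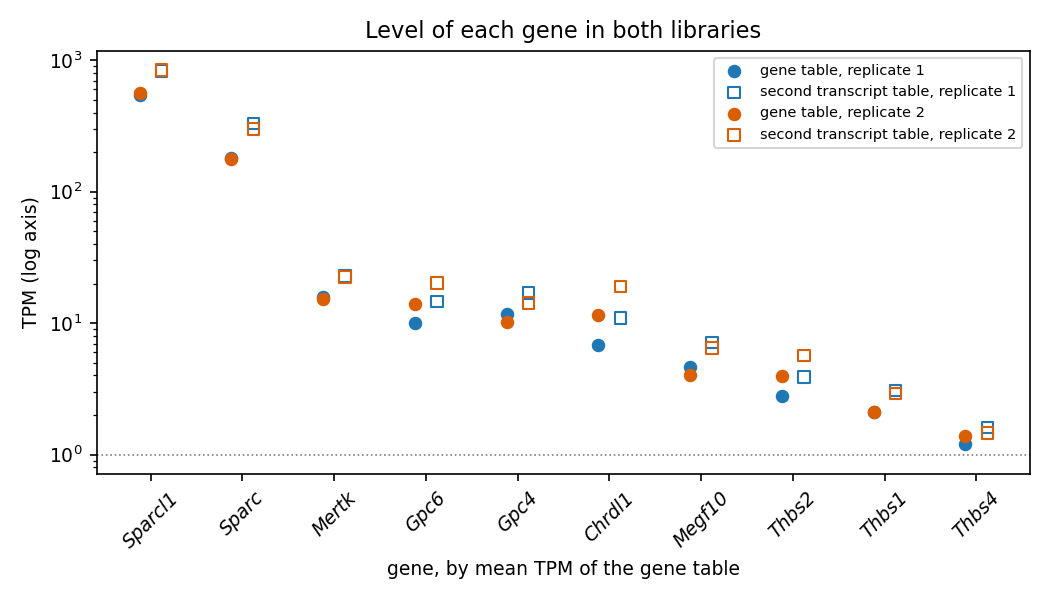
TPM (log axis) of each gene in replicate 1 (blue) and replicate 2 (orange), from the gene table (filled circles) and from the second transcript table (open squares), with a dotted line at 1 TPM. Sparcl1 and Sparc stand far above the other genes and Thbs4 lies just above the line in both tables.

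Sparcl1 (chromosome 5, 104079111 to 104113733) was at 542.36 TPM in replicate 1 and 559.4 in replicate 2, or 551 ± 12.05 (SD, n = 2). It ranked 51st among the 12931 detected protein-coding genes by mean level. Sparc (chromosome 11, 55394500 to 55423183), which encodes a collagen-binding, counter-adhesive matrix protein also known from vessels and other glia, was at 180.39 and 177.43 TPM. Its mean was 179 ± 2.09 (SD, n = 2), rank 396. Hevin RNA exceeded that of its antagonist in both libraries, with a log2 ratio of 1.62 ± 0.05 (SD, n = 2) on the scale of TPM + 0.1, a 3.08-fold higher level.

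Of the other SPARC family genes, the testican gene Spock2 (261 ± 6.35 TPM) lay between Sparcl1 and Sparc, and Spock1 (138 ± 10.6) was below both. Spock3 (39.7 ± 5.75) and Fstl1 (22.9 ± 3.47), a follistatin-like secreted protein, were lower. Nlgn1, which encodes a postsynaptic neuroligin bound by hevin, was at 47.0 ± 0.99 TPM (SD, n = 2 for each). All 8 genes of this list of relatives and partners reached 1 TPM in both libraries.

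Thbs2 (chromosome 17, 14665500 to 14694235) was the highest of the thrombospondin genes described here, at 2.79 TPM in replicate 1 and 3.98 in replicate 2. Thbs1 (chromosome 2, 118111876 to 118127133) was at 2.12 TPM in both libraries, from 232 and 247 expected counts. Thbs4 (chromosome 13, 92751590 to 92794818), which forms pentamers rather than the trimers of Thbs1 and Thbs2, was at 1.21 and 1.38 TPM from 71 and 61 counts. Thbs2 was above Thbs1 in both libraries, and Thbs1 above Thbs4.

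Thbs3, a relative of Thbs4 that was not among the 10 genes, was at 11.72 and 10.69 TPM. It exceeded Thbs4 8.11-fold, with a log2 ratio of Thbs4 over Thbs3 of -3.02 ± 0.22 (SD, n = 2). The size of this gap depended on the setting, though not its direction. The ratio was -3.29 by the second transcript table, -2.41 with a pseudocount of 1 and -2.31 when counts were not divided by length. Comp, the remaining family member, was at 0.32 and 0.23 TPM. It is named because it was the only gene of its list below 1 TPM in both libraries, a choice made after the values were seen.

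The direction of Thbs4 between the libraries depended on how reads were divided among its transcripts. Replicate 2 had fewer counts than replicate 1 (61 and 71) and yet a higher TPM (1.38 and 1.21). In that library 3.09 of the counts were assigned to an annotated retained-intron transcript of 428 bases (ENSMUST00000168299.1), which gave it 33.4% of the gene's TPM. Its deposited credibility bounds were 0.041 and 1.34 TPM. In replicate 1 the same transcript took 0 counts. The coding transcript was at 1.21 TPM in replicate 1 and 0.92 in replicate 2. By the gene table, Thbs4 thus reached 1 TPM in replicate 2 only with the retained intron included. By the second transcript table, which assigned the retained-intron transcript 0 in both libraries, Thbs4 was at 1.60 and 1.46 TPM.

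Most receptor genes for thrombospondins were far above Thbs1, Thbs2 and Thbs4. The exception was Cd36, at 2.00 and 1.63 TPM, named after its values were seen. Cacna2d1, the gabapentin-binding channel subunit that mediates their synaptic action, was at 89.5 ± 10.3 TPM, and its relatives Cacna2d3 and Cacna2d2 at 59.8 ± 2.89 and 16.6 ± 5.41. Cd47, an immunoglobulin-family receptor of thrombospondin 1, was at 130 ± 2.12 and the integrin subunit gene Itgb1 at 35.4 ± 2.66 TPM (SD, n = 2 for each). Of the 8 genes in the list of thrombospondin relatives and receptors, 7 reached 1 TPM in both libraries.

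Gpc4 (chromosome X, 52053021 to 52165252) was at 11.64 TPM in replicate 1 and 10.18 in replicate 2. Gpc6 (chromosome 14, 116925315 to 117976544) was at 10.04 and 13.89 TPM. Each of them was the higher one in 1 library, so the synaptogenic glypicans were not separated, with a log2 ratio of Gpc4 over Gpc6 of 0.21 in replicate 1 and -0.44 in replicate 2.

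Other glypicans were higher or lower than this pair. Gpc1 was at 41.0 and 33.64 TPM, 3.39-fold above Gpc4 (log2 ratio of Gpc4 over Gpc1 -1.76 ± 0.07, SD, n = 2), and Gpc5 was at 15.68 and 17.11, above Gpc6 in both libraries. Their protein partners were abundant, led by the receptor tyrosine phosphatase genes Ptprs (294 ± 1.46 TPM), Ptprd (160 ± 25.7) and Ptprf (75.04 ± 6.10). Gpr158, an orphan receptor, was at 54.8 ± 2.16 and Lrrtm4, a postsynaptic adhesion gene, at 31.96 ± 4.26. All 9 genes of the list of glypican relatives and partners reached 1 TPM in both libraries. The AMPA receptor genes were abundant as well, with Gria2 (GluA2) at 219 ± 0.42 and Gria1 (GluA1) at 101 ± 15.2 TPM. Among the neuronal pentraxins that cluster these receptors were Nptxr at 330 ± 28.4 and Nptx1 at 53.5 ± 3.29 TPM.

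Chrdl1 (chromosome X, 143285674 to 143394262) was at 6.86 TPM in replicate 1 and 11.56 in replicate 2. It lay below Gpc4 in replicate 1 and above it in replicate 2, so these 2 genes were not separated either. Chrd, which encodes chordin, the namesake antagonist of bone morphogenetic proteins, was at 11.69 and 16.67 TPM and exceeded Chrdl1 in both libraries, with a log2 ratio of Chrdl1 over Chrd of -0.64 ± 0.17 (SD, n = 2).

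Mertk (chromosome 2, 128698956 to 128802894) was the higher engulfment receptor gene, at 15.78 TPM in replicate 1 and 15.32 in replicate 2. Megf10 (chromosome 18) was at 4.62 and 4.00 TPM. Mertk exceeded Megf10 by 1.83 ± 0.11 on the log2 scale, 3.56-fold, and the libraries did not overlap.

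Within the family of Mertk, the receptor tyrosine kinases Tyro3, Axl and Mertk, Tyro3 was highest at 50.69 and 53.13 TPM, 3.32-fold above Mertk. Axl, at 16.06 and 17.67 TPM, was not separated from Mertk, since their mean log2 ratio of -0.11 was smaller than its SD of 0.13. Gas6, a ligand that links these receptors to phosphatidylserine, was at 51.5 ± 1.59 TPM. Megf11, the closest relative of Megf10, was at 5.84 and 6.19 TPM, above Megf10 in both libraries. The log2 ratio of Megf10 over Megf11 was -0.47 ± 0.20 (SD, n = 2), and it turned to 0.13 when counts were not divided by length. All 12 genes of the engulfment list reached 1 TPM, with Adgrb1 (204 ± 3.42), Lrp1 (130 ± 13.3) and Mfge8 (67.9 ± 3.49), a bridging ligand for integrins, highest.

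**Figure D2:**
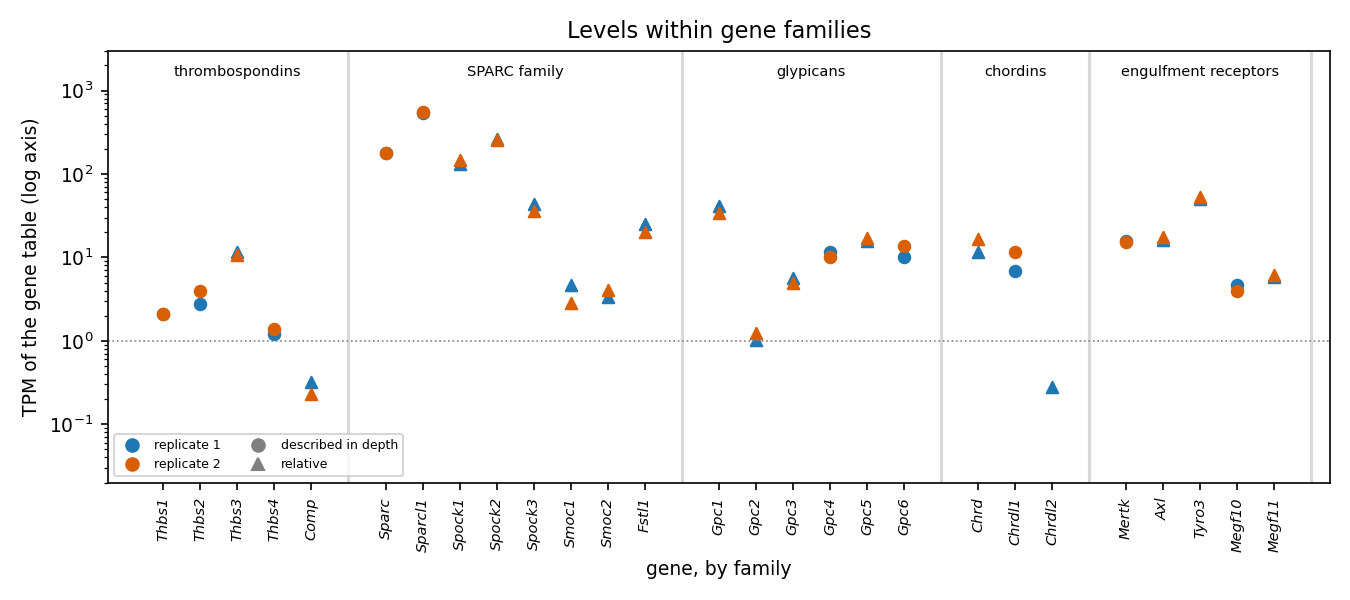
TPM of the gene table (log axis) in replicate 1 (blue) and replicate 2 (orange) for the 10 genes (circles) and their relatives (triangles), grouped by family, with a dotted line at 1 TPM. Thbs3, Gpc1 and Tyro3 stand above the described members of their families, and the point of Chrdl2 in replicate 2, listed at 0, is not drawn.

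In the order of mean levels, 6 of 9 neighbouring genes were separated, meaning that both libraries gave the same order and the mean log2 ratio exceeded its SD. The neighbours that were not separated were Gpc6 and Gpc4, Gpc4 and Chrdl1, and Megf10 and Thbs2. The second transcript table gave the 10 genes in the same order and separated 7 of 9 neighbours, now with Megf10 above Thbs2. Of the 14 gene pairs examined, 11 had a direction. With 2 libraries this rule is a low bar, and the share of all gene pairs that would meet it was not measured. Among the neighbours, Mertk and Gpc6 met it with a mean log2 ratio of 0.39 against an SD of 0.36. Levels of all 10 genes were higher in the second table, where the median ratio to the gene table was 1.56 in replicate 1 and 1.54 in replicate 2 over 12899 protein-coding genes. Among the 10 genes the ratio was highest for Sparc, at 1.83 and 1.69, and lowest for Thbs4, at 1.32 and 1.06.

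The 10 genes have 31 annotated transcripts, and most genes were dominated by 1 of them. Among the 9 genes with more than 1 annotated transcript, in 7 a single transcript exceeded a share of 50% in each library, against 62.4% of all such genes at 1 TPM. Gpc4 has a single annotated transcript. The leading transcripts took 98.3 ± 0.08% of Sparcl1, 97.3 ± 2.12% of Thbs2, 95.3 ± 6.65% of Megf10 and 99.1 ± 1.27% of Mertk, and 100% of Thbs1 in both libraries (SD, n = 2). That of Thbs4 took 83.3 ± 23.6% (SD, n = 2), with 100% in replicate 1 and 66.6% in replicate 2. In the second table the count was again 7 of 9, against 55.4% of all such genes. There the leading transcript of Megf10 took a smaller share, 83.3 ± 1.57% (SD, n = 2), and that of Thbs4 took 100% in both libraries.

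Gpc6 was divided between forms with and without the 30-base exon shown above. The form without it took 46.2% of the gene's TPM in replicate 1 and 40.1% in replicate 2, and the form with it took 35.3% and 43.5%. A transcript annotated as a retained intron with no coding sequence (ENSMUST00000123239.1) took 18.5% and 16.4%. Among coding forms the share with the exon was 43.3% in replicate 1 and 52.0% in replicate 2, and the second table gave 43.2% and 51.9%. Which of the main coding forms had the higher estimate thus differed between the libraries, in both tables, which rest on the same reads. The deposited credibility bounds of these forms overlapped in each library. Without the exon they were 3.75 to 5.17 TPM in replicate 1 and 4.63 to 6.21 in replicate 2. With the exon they were 2.32 to 4.31 and 4.54 to 6.84 TPM. Which form led in either library is therefore not settled. The coding parts are 1695 and 1665 bases long, so the exon keeps the reading frame. The forms also differ in their annotated first exons and ends, and reads there entered the shares.

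Chrdl1 was divided between a long and a short coding form. The short form of 999 coding bases, which ends at the stop codon printed above, was the highest transcript with 48.4% of the gene's TPM in replicate 1 and 49.2% in replicate 2. The long form, with 1341 coding bases, took 34.3% and 29.9%. A transcript of 640 bases whose exons nearly all lie within those of the short form (ENSMUST00000207415.1) took 13.0% and 19.6% from only 9.14 and 24.9 counts. Over all transcripts with 1341 coding bases (long) and all with 999 (short), the long share was 44.4% in replicate 1 and 38.6% in replicate 2, and 43.4% and 37.9% in the second table. The short form thus had the higher estimate in both libraries and both tables, which rest on the same reads. In replicate 1 the deposited credibility bounds of the main short and long transcripts overlapped (2.54 to 3.52 and 1.43 to 2.76 TPM). They did not overlap in replicate 2 (4.68 to 5.93 and 2.67 to 3.77 TPM). Which form led in replicate 1 is therefore not settled. Most of the short form's last exon lies in an intron of the long form.

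Sparc was the gene whose leading transcript depended on the quantification. In the first table Sparc-202 took 72.6% of the gene's TPM in replicate 1 and 69.4% in replicate 2, and Sparc-201 took 24.7% and 29.0%. In the second table the order was the opposite, with Sparc-201 at 56.6% and 59.1% and Sparc-202 at 25.7% and 29.8%. The forms with the 3 added coding bases made up 27.9 ± 2.80% by the first table and 59.1 ± 0.25% by the second (SD, n = 2), a gap far beyond the spread between the libraries. Besides those 3 bases, the transcripts differ in the first exon, annotated at 293 bases in Sparc-201 and 111 in Sparc-202. The second table also gave 13.7% and 10.7% to Sparc-206, a partial annotation that took 0 in the first table. Which of the tables is closer to the tissue cannot be told from them.

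**Figure D3:**
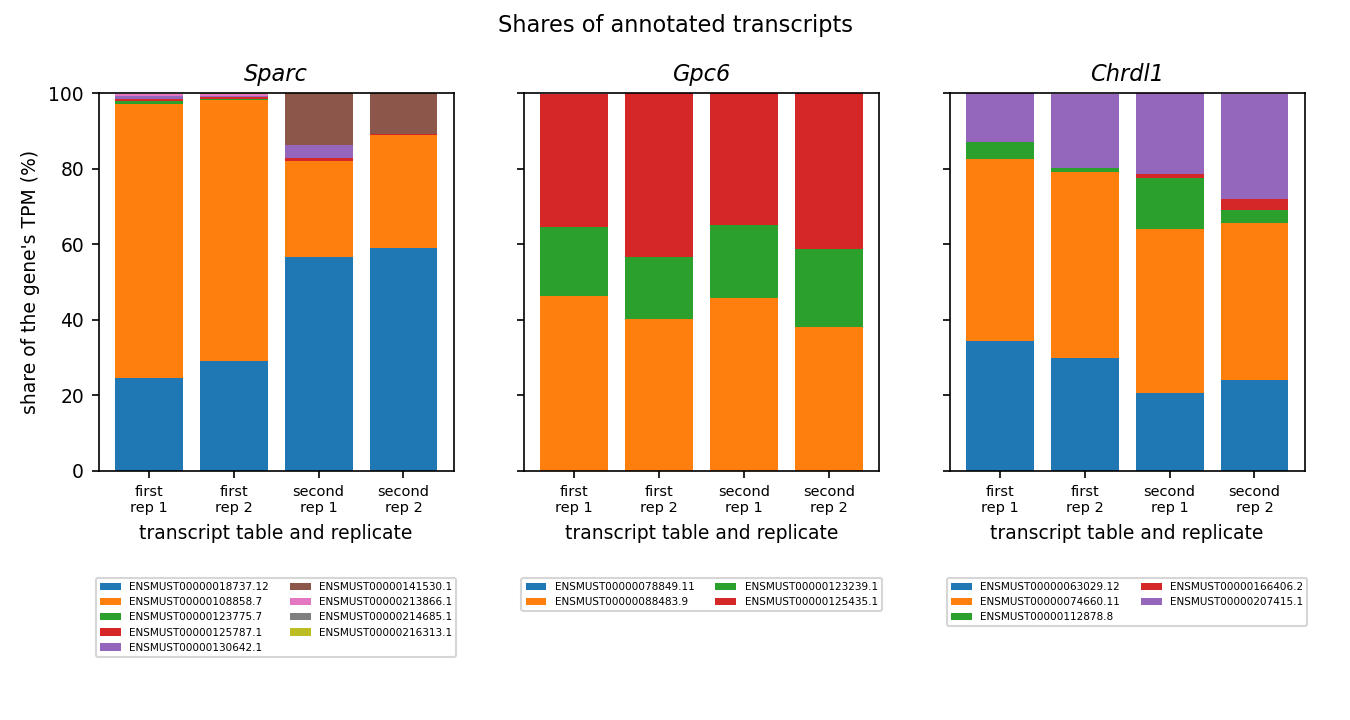
Share of each gene's TPM (%) in its annotated transcripts for Sparc, Gpc6 and Chrdl1, as stacked bars for the first and the second transcript table in replicates 1 and 2. The Gpc6 bars are alike in both tables, whereas Sparc-202 (ENSMUST00000108858.7) leads in the first table and Sparc-201 (ENSMUST00000018737.12) in the second.

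Between the libraries, Chrdl1, Thbs2 and Gpc6 were higher in replicate 2. Of the other 7 genes, all but Thbs4 were nearly level or slightly lower. Thbs4, with 71 and 61 counts, had an interval too wide to give a direction. These differences compare 2 libraries of 1 group and carry no test. They were taken as log2 CPM, counts scaled to a common library total,, replicate 2 minus replicate 1, and each interval covers counting error only. In bulk tissue, fewer cells of a type and less RNA per cell cannot be told apart.

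Chrdl1 had 438 and 739 expected counts, a log2 difference of 0.65 or 1.57-fold (95% exact interval 1.40 to 1.78). It was the only one of the 10 genes past 1.5-fold in either direction. Among 18965 genes measured, 4.35% were past 1.5-fold higher in replicate 2, 6.61% lower and 11.0% in either direction, so 1 of 10 is near that share. Above a mean of 100 counts, where 9 of the 10 lie, 0.911% of 12625 genes were past it higher, 2.01% lower and 2.92% in either direction. Against that share 1 of 9 is higher, but it rests on the single gene Chrdl1. Its main transcripts were both higher, the short form at 3.32 and 5.69 TPM and the long form at 2.35 and 3.46 TPM.

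Thbs2 had 305 and 455 counts, a difference of 0.48 or 1.39-fold (1.20 to 1.62). Gpc6 had 598 and 855 counts, 0.42 or 1.33-fold (1.20 to 1.48). For these genes and Chrdl1 the intervals lay above 1, so the libraries differed by more than counting error, and neither Thbs2 nor Gpc6 passed 1.5-fold. Of the Gpc6 forms, the one with the 30-base exon was at 3.54 and 6.04 TPM and the one without it at 4.64 and 5.57.

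Sparcl1, with 27078 and 29853 counts, differed by 0.04 (1.03-fold, interval 1.01 to 1.05). Sparc, Mertk and Thbs1 differed by -0.01, -0.04 and -0.01, with intervals that held 1. Gpc4 had 564 and 527 counts and was lower by a little more than counting error, at -0.20 (0.873-fold, 0.773 to 0.984). Megf10 was at -0.13 and Thbs4 at -0.31, both with intervals that held 1, and the Thbs4 interval was the widest (0.560 to 1.15). The median over the 10 genes was -0.01, and over all genes measured 0.00 to 2 decimals (-0.00034).

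**Figure D4:**
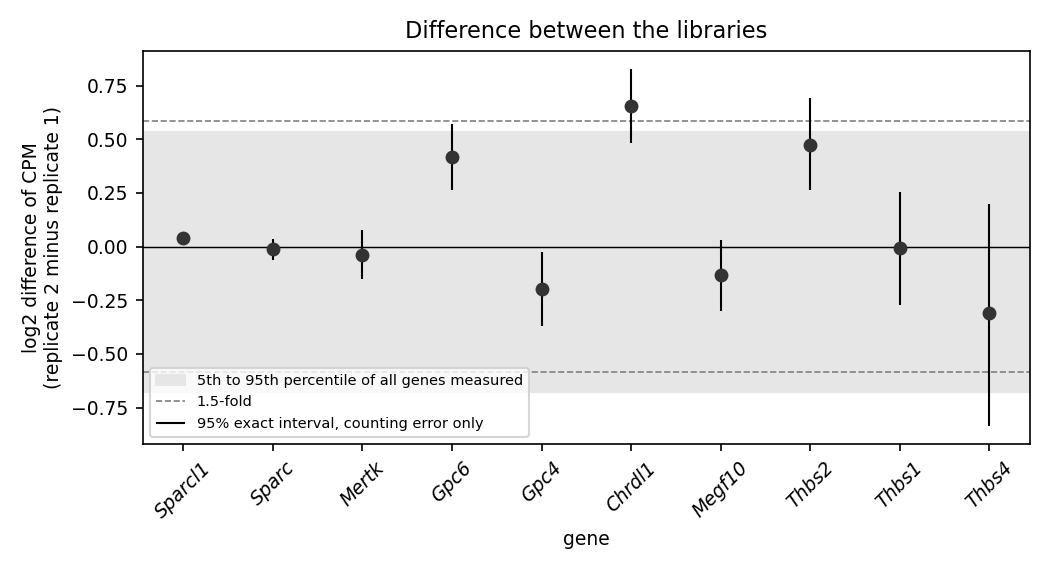
Log2 difference of CPM between the libraries (replicate 2 minus replicate 1) for each gene, with 95% exact intervals for counting error, dashed lines at 1.5-fold and a grey band from the 5th to the 95th percentile of all genes measured (-0.68 to 0.54). Chrdl1 lies above the band and the upper dashed line, and Thbs2 and Gpc6 lie inside the band.

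Markers of several cell types moved in the same direction as Chrdl1, Thbs2 and Gpc6. All 5 upper-layer neuron markers were higher in replicate 2, with a median log2 difference of 0.41, as were all 6 meningeal fibroblast markers (0.09) and all 5 mural markers (0.18). All 4 blood genes were higher as well (0.60), and 4 of 5 choroid plexus markers (0.68). So were 4 of 5 neuron markers (0.11), 4 of 5 endothelial markers (0.13) and 4 of 7 microglia markers (0.02). None of these markers was at 0 in both libraries. The 10 astrocyte markers had a median of -0.02, with 4 higher and 6 lower, and none past 1.5-fold. Striatal markers, all 6 lower in replicate 2, had a median of -2.44. Deep-layer markers had a median of -0.86, with 4 of 5 lower and Fezf2 higher (0.17). All 5 myelinating oligodendrocyte markers (-0.64) and all 5 oligodendrocyte precursor markers (-0.22) were lower. The part of these tissue differences in the values of the 3 genes was not tested.

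Reads of neighbouring genes could enter few of these values. Annotated genes overlapped 4 of the 10 genes: Thbs1, Sparcl1, Gpc6 and Mertk. Exonic bases were shared only by Thbs1 with Gm29233, an annotated lincRNA on the opposite strand that took 0 counts in both libraries.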

How the data were processed

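For each library the authors deposited a gene table and a first transcript table made from alignments to the transcriptome (mm10, GENCODE M21), and a second transcript table made from the reads, per the deposited description files. Aligner, quantifier, version and strand setting: not given in the sources used here. Reads of both parental alleles were thus compared with a C57BL/6 reference. The authors deposited expected counts (estimated reads, not normalized), TPM (over all entries, spike-ins included), FPKM, the percent of each gene in each transcript, and credibility bounds of TPM, treated as a score because their level is not stated in the file headers. The second table's deposited estimated counts and TPM were summed per gene. The 96 spike-in entries and 26248 entries named by a number (1 and 6 counts) were left out. At 0 counts the upper limit is 3 counts (0.106 CPM in replicate 1, 0.0972 in replicate 2).

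Expected counts were rounded, a gene needed 10 counts in 1 library to be kept, and log2 CPM (TMM scaling, prior count 2) came from edgeR 4.0.16 under R 4.3.3. DESeq2 1.42.0 gave alternative size factors. Ratios between genes used TPM + 0.1. Intervals are exact (Clopper-Pearson, 95%) on the split of a gene's counts between libraries. Python 3.11.15 with scipy 1.17.1 did the rest. The difference step was tested on simulated data. All 10 genes are named. Of each list of relatives and partners at most 6 genes are named by mean TPM, plus members of the chosen pairs, and 1 listed gene is not reported here. The genes, lists and pairs were chosen with earlier results of these data known. With 2 libraries, likeness of pattern between genes was not measured.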

Additional observations from a re-analysis of the deposited data

How the results depend on the processing

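The 10 genes at 1 TPM in both libraries numbered 10 in the second transcript table, 10 after rescaling TPM to nuclear protein-coding genes, 9 by FPKM (Thbs4 was below 1) and 6 at a threshold of 5 TPM, and 10 to 10 without replicate 1 or 2. The second table and the rescaling raised all 10 genes, with mean Thbs4 at 1.53 and 2.77 TPM. A single library asks less than both. These settings could therefore not lower the count, and only FPKM and the higher threshold could. The single gene past 1.5-fold between the libraries, Chrdl1, was past it under DESeq2 size factors, library totals, spike-in totals, no filter, a mean of 100 counts, a prior count of 0.5 and the second table, with a log2 difference between 0.63 and 0.69, and 0 genes passed 2-fold. A library left out gives no difference, so that alternative was not run there. The number of genes with a leading transcript above 50% was 8 (Gpc4 included) in either table and 6 at 75%, and 8 to 8 without replicate 1 or 2. The 11 pairs with a direction became 11 or 12 of 14 under other pseudocounts, FPKM, the second table or counts, and 14 to 14 in a single library, where no SD exists. The order of Megf10 and Megf11 reversed, to 0.13, when counts were not divided by length. The share of Sparc with 3 added bases moved to 59.1% in the second table, an alternative chosen after seeing the data, and the cause was not tested. No paired analysis was possible because there is only 1 group. Depth limits Thbs4 most, with 71 and 61 counts.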

Other observations

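Genes of bone morphogenetic protein signalling, which Chrdl1 and Chrd antagonise, were also present. The receptor genes Bmpr2 (47.1 ± 2.69 TPM, SD, n = 2) and Bmpr1a (15.3 ± 1.73) stood above the ligand gene Bmp4 (6.26 ± 0.95) in both libraries, whereas the receptor gene Bmpr1b (6.96 ± 0.72) did so only in replicate 2. The antagonist gene Nog, which encodes noggin, was at 7.09 ± 0.98. Of the 10 genes in this list 9 reached 1 TPM in both libraries. Chrdl2, named after its values were seen as the remaining one, was at 0.28 TPM in replicate 1 and listed at 0 in replicate 2. Chrd was the only gene of the list past 1.5-fold between the libraries, at 0.65 on the log2 scale, with 520 and 878 counts.

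Among other secreted or adhesive astrocyte factors, Nrcam, an adhesion gene that neurons also express, was at 226 ± 11.7 TPM. Il33 (5.14 ± 0.38), Wnt5a (5.05 ± 0.60), Tgfb1 (4.81 ± 0.36), Tgfb2 (4.68 ± 1.34) and Tnc (3.69 ± 0.30) lay between 3 and 6 TPM (SD, n = 2 for each), near the level of Megf10 and Thbs2. Over all 7 lists of relatives and partners, 56 of 58 genes reached 1 TPM in both libraries. Of 56 measured for a difference, 1 was past 1.5-fold higher in replicate 2 (Chrd) and 2 lower (Cacna2d2, at -0.62, and Smoc1, a SPARC-related matrix gene named after its values were seen, at -0.73). Over all 18965 genes measured, 4.35% were past it higher, 6.61% lower and 11.0% in either direction.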
